A study of Mus musculus with 9 samples.

Results

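The genes described are 32 endothelial and leukocyte adhesion genes, all found by symbol among the 17132 genes of a table of mouse pancreas messenger RNA. They fall into 25 identity genes, which endothelial cells carry at rest, and 7 activation genes. The activation genes are 4 leukocyte adhesion genes (Icam1, Vcam1, Sele and Selp) and 3 angiogenic genes (Angpt2, Apln and Esm1). All 32 passed the filter on low counts. Pancreas was taken from 9 C57BL/6 mice of 22 to 25 g, 3 in each of 3 groups. QYD mice had 7 hourly intraperitoneal injections of caerulein, with lipopolysaccharide (LPS) at the last one, and Qingyi Decoction at 0 and 8 h. Model mice had the same injections and saline in place of the decoction. Control mice had saline in place of caerulein, LPS and decoction. In every group pancreas was collected at 24 h from the start. QYD and Model are together called the injured groups. On Control libraries alone Sele, Selp, Angpt2, Apln and Esm1 would not have passed the filter, and they entered through injured libraries. The same holds for some identity genes, among them Flt4. Caerulein is a cholecystokinin analogue that overstimulates acinar cells, LPS is a bacterial cell wall product, and Qingyi Decoction is a herbal preparation whose composition the labels leave out, as they do the ages and sexes of the mice.

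Endothelial cells line blood vessels and hold leukocytes at a distance until they are stimulated. On activation they place selectins on their surface, which slow passing leukocytes, and then immunoglobulin-like adhesion molecules such as Icam1 and Vcam1, which hold them through integrins. Identity genes encode junction proteins, receptors and transcription factors by which the cell type is recognised, and some of them mark particular vessel beds, such as the fenestrated capillaries of glands.

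Sequence upstream of the annotated start was printed for the adhesion genes with an entry in the RefSeq promoter table (GRCm38.p6), since these genes were higher together in injured pancreas. That table held 21 windows for 17 of the 32 genes. Each line gives the 250 bases before the start on the plus strand, at chr9:21015690-21015939 for Icam1, chr1:164047984-164048233 for Sele and chr1:164115014-164115263 for Selp. Capitals mark the matches to 2 motifs on either strand.
Icam1: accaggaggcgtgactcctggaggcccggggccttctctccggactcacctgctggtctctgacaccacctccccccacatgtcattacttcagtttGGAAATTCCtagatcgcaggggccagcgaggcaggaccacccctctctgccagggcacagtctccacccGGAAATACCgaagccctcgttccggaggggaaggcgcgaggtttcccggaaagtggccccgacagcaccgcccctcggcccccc
Sele: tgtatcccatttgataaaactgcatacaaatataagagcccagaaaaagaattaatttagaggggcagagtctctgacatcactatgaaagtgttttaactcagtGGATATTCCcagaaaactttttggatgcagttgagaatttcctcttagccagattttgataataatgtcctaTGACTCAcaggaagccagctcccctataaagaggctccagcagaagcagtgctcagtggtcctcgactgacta
Selp: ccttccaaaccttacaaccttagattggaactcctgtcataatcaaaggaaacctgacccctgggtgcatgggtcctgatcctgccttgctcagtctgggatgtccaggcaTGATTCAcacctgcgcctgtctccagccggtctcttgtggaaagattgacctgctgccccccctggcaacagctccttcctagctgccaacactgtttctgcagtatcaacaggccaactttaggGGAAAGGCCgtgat

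The first motif, GGNNNTTCC, is a loose form of the site bound by NF-kB, and 15.7% of the 32851 windows of the same length in the table held it. It was found in windows of Icam1, Sele, Selp, Eng and Egfl7. The second motif, TGANTCA, is a form of the site bound by AP-1, and 6.75% of all windows held it, among them those of Sele and Selp. The motifs do not overlap in the sequences shown. The Sele window lies inside the annotated span of the gene, which begins at 164039614 with a more distal transcript. The motifs were chosen after the sequences had been read, and a match is a string of letters and no measure of binding.

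The libraries held 19112923 to 20212744 estimated counts and differed in composition. The 10 acinar marker genes summed to 5985143 to 6750868 estimated counts in QYD and 6065195 to 6829287 in Model, against 10690368 to 11087136 in Control. Levels are therefore given as CPM (counts scaled to a fixed library total) with TMM factors (trimmed mean of M values), so that a change is relative to the typical gene. On library size alone the median of all 12828 genes tested stood at 2.19 log2 units in Model versus Control and 2.09 in QYD versus Control, against 0.04 and 0.06 on the TMM scale, and a member's value on library size is to be read against that shift. In RNA of whole tissue, a smaller number of endothelial cells and less RNA per cell cannot be told apart.

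The identity genes were present throughout. All 25 identity genes had counts in all 9 libraries. Their summed level was 205, 159 and 163 CPM in QYD, against 165, 218 and 181 in Model and 163, 211 and 169 in Control. The 3 groups overlapped. Summed estimated counts were 7004, 4754 and 4382 in QYD, against 5755, 7321 and 5259 in Model and 1164, 1657 and 1330 in Control, so each Control value rests on fewer reads and carries more counting error. By FPKM, which corrects for gene length, Plvap was the most abundant member in each group, with 16.0 ± 4.09 in QYD, 17.8 ± 3.06 in Model and 5.69 ± 1.16 in Control (SD, n = 3). FPKM is scaled to the library total, so the ranks of members within a group are given here and not fold changes of these means. Sele ranked lowest of the 32 by FPKM in Control, and Sox17 ranked lowest in QYD and Model. Icam1 held rank 5 in QYD and 2 in Model, where it tied with the progenitor and endothelial glycoprotein Cd34, against rank 13 in Control.

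Model set against Control shows how vessel genes differed after the pancreatic injury. Genes of leukocyte capture and adhesion were higher in Model: P-selectin 6.69-fold, E-selectin 4.92-fold, Icam1 4.82-fold and Vcam1 2.54-fold. The angiogenic genes Angpt2 and Apln were 5.19-fold and 3.98-fold higher, while Esm1 did not pass. In all, 6 of 7 activation genes passed as higher and none as lower by edgeR (quasi-likelihood, Benjamini-Hochberg adjusted over all genes), where 42.6% of all genes passed, 21.3% as higher and 21.3% as lower. The median of the 7 was 2.27 on the log2 scale, against 0.04 for all genes. Sele, Selp, Angpt2, Apln and Esm1 entered the test through injured libraries, so this count and median are not independent of that entry. In 6 of the 7, every Model library lay above every Control library, as in 27.4% of all genes, while 24.9% lay wholly below.

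Icam1 (chromosome 9, 21015940 to 21028814, GRCm38.p6) encodes a ligand of the leukocyte integrins that contain Itgal or Itgam. It stood at 19.5, 14.8 and 15.4 CPM in QYD, 18.8, 20.4 and 16.4 CPM in Model, and 2.66, 2.67 and 6.10 CPM in Control. Every library of the injured groups lay above every Control library, and the highest Control value was that of Control 45. The log2 fold change of Model over Control was 2.27 ± 0.27 (SE), with an edgeR adjusted p of 9.64e-05. Reads of Icam1 cannot be told apart from those of an antisense gene (Gm47079) that overlaps it, since no source used here says whether counting used strand. The same holds for the opposite-strand genes annotated at Vcam1, Selp, Cd34 and Sox17.

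Selp (chromosome 1, 164115264 to 164150026) encodes P-selectin, which endothelial cells and platelets store in granules and bring to the surface within minutes of stimulation. It stood at 10.9, 6.10 and 14.3 CPM in QYD, 14.7, 13.4 and 9.55 CPM in Model, and 1.54, 0.51 and 3.56 CPM in Control. Model did not overlap Control, and its log2 fold change was 2.74 ± 0.48, the highest among the 32 genes in this comparison (edgeR adjusted p = 0.00102). Of 9 platelet and megakaryocyte markers 1, Pf4, was abundant enough to be tested, and it did not pass in Model versus Control (0.56 ± 0.33) but did in QYD versus Control (0.90 ± 0.33, edgeR adjusted p = 0.0469). The summed level of the 9 was 7.25 to 8.75 CPM in QYD, against 3.66 to 8.76 in Model and 4.32 to 5.87 in Control, and Gp9 and Treml1 had no count in 8 of 9 libraries. The part of platelets in Selp was not tested.

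Sele (chromosome 1, 164039614 to 164058487) encodes E-selectin, which is made on activated endothelium. It stood at 1.55, 0.87 and 1.86 CPM in QYD, 1.43, 1.52 and 0.97 CPM in Model, and 0.14, 0 and 0.64 CPM in Control. The Control values rest on 1, 0 and 5 counts. Model lay above Control in every library, and the log2 fold change was 2.30 ± 0.68 (edgeR adjusted p = 0.0188). Without Control 45 it was 4.20, and it no longer passed without Control 43 (2.03) or Control 44 (1.71), with edgeR adjusted p of 0.0682 and 0.0597. By limma voom Sele had 2.08, with an adjusted p of 0.0735.

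Vcam1 (chromosome 3, 116110020 to 116129688), the ligand of the integrin made of Itga4 and Itgb1, stood at 9.74, 9.95 and 5.21 CPM in QYD, 8.07, 11.1 and 5.97 CPM in Model, and 4.61, 2.04 and 3.30 CPM in Control. The lowest Model library lay above the highest Control library, Control 43. The log2 fold change was 1.35 ± 0.36 (edgeR adjusted p = 0.0111), and without Control 44 it was 1.09, with an edgeR adjusted p of 0.0547. By limma voom it was 1.33, with an adjusted p of 0.0535.

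Angpt2 (chromosome 8, 18690263 to 18741562), a ligand of the receptor Tek that endothelial cells release from granules, stood at 3.86, 2.81 and 4.95 CPM in QYD, 4.03, 6.19 and 4.07 CPM in Model, and 0.28, 0.51 and 1.91 CPM in Control. All injured libraries exceeded all Control libraries, whose values rest on 2, 4 and 15 counts. Its log2 fold change in Model was 2.38 ± 0.47 (edgeR adjusted p = 0.00228). Apln, a peptide of sprouting vessel tips, stood at 3.92, 2.24 and 2.61 CPM in QYD, 4.03, 4.61 and 3.86 CPM in Model, and 0.28, 0.76 and 2.03 CPM in Control. Its injured and Control libraries did not overlap either, with a log2 fold change of 1.99 ± 0.44 in Model (edgeR adjusted p = 0.0039). The Control values of Apln rest on 2, 6 and 16 counts. Esm1, a proteoglycan also made by tip cells, stood at 1.02, 0.64 and 0.78 CPM in QYD, 0.86, 0.89 and 0.55 CPM in Model, and 0.56, 0.51 and 0.89 CPM in Control. Its Model and Control libraries overlapped, and its log2 fold change of 0.23 ± 0.41 did not pass on the TMM scale (edgeR adjusted p = 0.675), against 2.37 on library size, which passed.

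**Figure D1:**
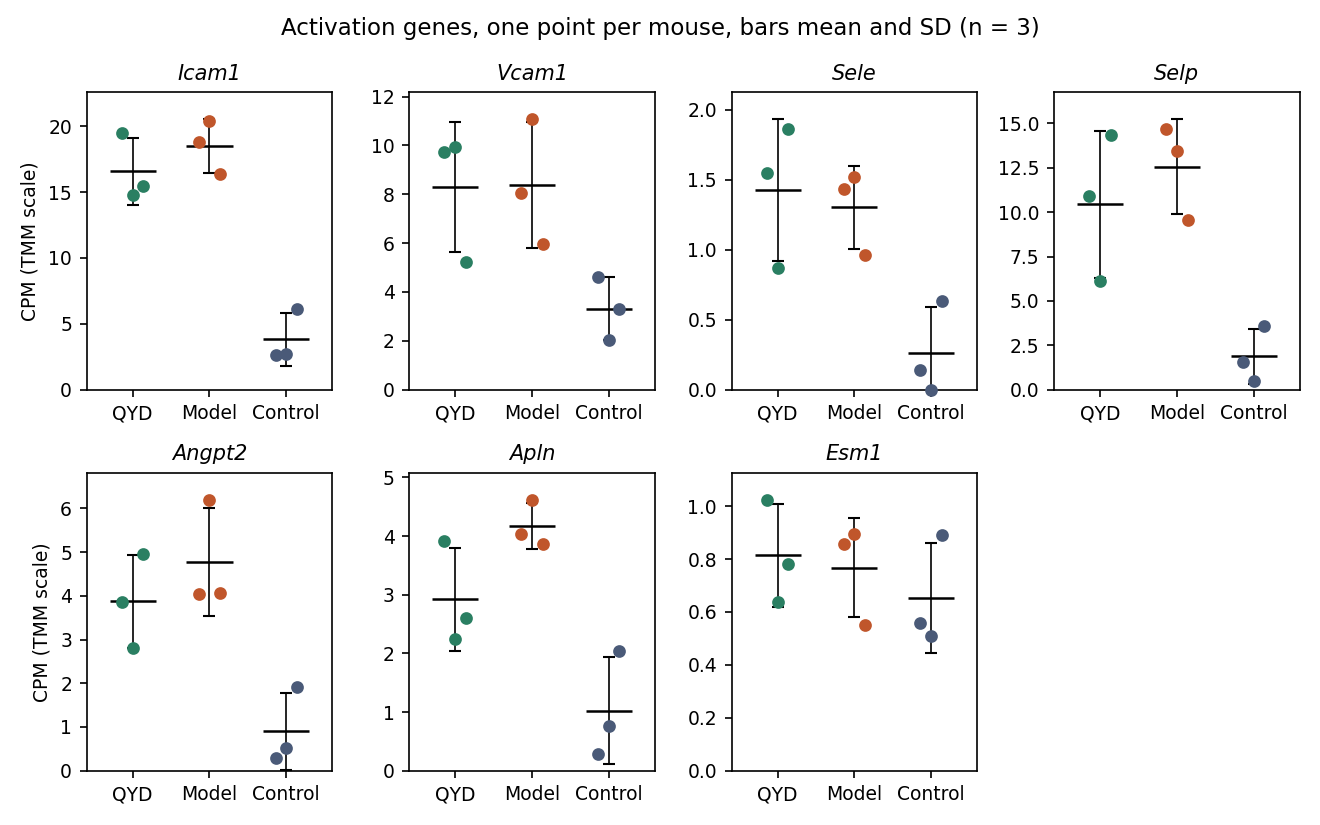
Levels of the 7 activation genes in CPM on the TMM scale (y axis, from 0) for QYD, Model and Control; points are single mice, lines the mean and bars the SD (n = 3). For each gene other than Esm1 all Model and QYD points lie above all Control points, and the highest Control point is Control 45 in 6 of the 7 genes.

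Within groups the activation genes followed the same libraries. Control 45 was the highest Control library in 6 of 7 genes, all but Vcam1. Model 57 was the highest and Model 59 the lowest Model library in 6 of 7 genes each. QYD 66 was the lowest QYD library in 6 of 7. Neutrophil markers, of which 8 of 10 passed as higher and none as lower in Model versus Control (21.3% of all genes in each direction), were also highest in Control 45 among Control libraries. Their summed level was 182, 142 and 262 CPM in QYD, against 184, 140 and 114 in Model and 15.8, 9.30 and 38.8 in Control. Of 10 macrophage and monocyte markers 6 passed as higher and 1 as lower, with a summed level of 269 to 274 CPM in QYD, against 211 to 325 in Model and 85.6 to 157 in Control. None of the 20 markers of both lists was at 0 in every Control library. B and T lymphocyte markers, of which none of 5 tested passed, summed to 11.6, 19.8 and 0.968 CPM in QYD, against 0.601, 10.9 and 0.655 in Model and 15.0, 3.44 and 4.45 in Control. QYD 66, Model 57 and Control 43, the highest libraries of each group in that sum, were also the highest in Vcam1. Fibroblast markers, of which 3 of 8 passed as higher and 2 as lower, summed to 484, 372 and 271 CPM in QYD, against 348, 478 and 286 in Model and 394, 278 and 288 in Control, with QYD 65, Model 57 and Control 43 highest. The identity gene Cd34 was highest in the same libraries of each group. Leukocytes and stroma can also express Icam1 and Vcam1. The part of these cells, or of epithelium, in the level of Icam1, Vcam1 or Cd34 was not tested. Markers of lymph node vessels and stroma summed to 2.50 to 7.87 CPM in QYD, against 2.55 to 2.86 in Model and 3.05 to 6.57 in Control, and Glycam1 had no count in 8 of 9 libraries.

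The identity genes moved less and in both directions. In Model versus Control 5 of 25 passed as higher (Kdr, Flt4, Eng, Emcn and Podxl) and 4 as lower on the TMM scale (Cd300lg, Tek, Sox17 and Plvap), against 21.3% of all genes in each direction, so these counts stand near the background. On library size 22 passed as higher and none as lower, where 94.0% of all genes passed as higher and 0.943% as lower. The median log2 fold change of the 25 was 0.09, against 0.04 for all genes, and on library size 2.23, against 2.19. The identity median thus stayed near that of all genes on both scales.

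Cd300lg (chromosome 11, 102041511 to 102055617), a surface glycoprotein of capillary and lymph node endothelium, had the largest decrease of the 32 on the TMM scale. It stood at 4.30, 3.52 and 4.17 CPM in QYD, 2.00, 1.96 and 1.41 CPM in Model, and 7.97, 12.6 and 6.61 CPM in Control. The 3 groups formed separate ranges, with Model lowest and Control highest. The log2 fold change of Model over Control was -2.33 ± 0.25 (edgeR adjusted p = 5.81e-05), and on library size it was -0.17 and did not pass.

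Tek (chromosome 4, 94739086 to 94874976), the receptor of the angiopoietins that keeps vessels quiescent, was also lower relative to the typical gene. It stood at 1.93, 1.17 and 1.12 CPM in QYD, 1.17, 1.94 and 1.52 CPM in Model, and 2.66, 6.37 and 4.32 CPM in Control. No injured library reached the lowest Control library. The log2 fold change in Model was -1.53 ± 0.34 (edgeR adjusted p = 0.00455), against 0.60 on library size, which did not pass and lay below the median gene. Its relative Tie1, which shares its signalling complex, had -0.26 ± 0.24 and did not pass. Cd300lg and Tek kept their call when each of the 9 libraries was left out in turn. Pericyte and smooth muscle markers, of which 3 of 9 were lower in Model on the TMM scale (21.3% of all genes were), summed to 24.7 to 29.9 CPM in QYD, against 28.1 to 31.3 in Model and 34.6 to 54.9 in Control. Adipocyte markers, of which 3 of 8 were lower on that scale, summed to 94.8 to 122 CPM in QYD, against 53.1 to 95.8 in Model and 155 to 188 in Control. The part of these cells in Tek or Cd300lg was not tested.

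Plvap, which forms the diaphragms of fenestrated capillaries, stood at 21.8, 16.0 and 19.7 CPM in QYD, 19.6, 21.9 and 17.9 CPM in Model, and 24.0, 33.5 and 26.8 CPM in Control. Its groups of injured and Control libraries did not overlap, with a log2 fold change of -0.51 ± 0.16 in Model (edgeR adjusted p = 0.0245), against 1.65 on library size. It no longer passed without Control 44 (-0.36), Model 56 (-0.50) or Model 59 (-0.44). The arterial transcription factor Sox17 stood at 0.47, 0.40 and 0.30 CPM in QYD, 0.37, 0.21 and 0.52 CPM in Model, and 1.82, 1.27 and 0.25 CPM in Control. Control 45 lay within the range of the injured libraries, and only Control 43 and Control 44 lay above it. Its log2 fold change of -1.59 ± 0.58 (edgeR adjusted p = 0.0459; 0.54 on library size) was lost without Control 43 (-1.06), Control 44 (-1.47), Model 56 (-1.61), Model 57 (-1.31) or any 1 of the QYD libraries, which share the estimate of the spread (-1.58 to -1.59).

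Among receptors, Kdr, the main signalling receptor of Vegfa, stood at 11.6, 9.05 and 9.57 CPM in QYD, 9.70, 15.7 and 13.8 CPM in Model, and 7.13, 9.17 and 6.61 CPM in Control. Model exceeded Control in every library, whereas QYD 66 lay below Control 44. Its log2 fold change in Model was 0.77 ± 0.21 (edgeR adjusted p = 0.0118) and it passed with each library left out. Flt4, the receptor of Vegfc and Vegfd, rose by 0.90 ± 0.30 and lost its call without Control 43, Control 44, Model 56, Model 57 or Model 59 (0.70 to 0.93) and by limma voom (0.77). The part of lymphatic vessels in the level of Flt4 was not tested. Eng, a coreceptor for the TGF-beta family, rose by 0.58 ± 0.18, with means of 16.3 ± 2.60 CPM in QYD, 19.4 ± 2.61 in Model and 13.0 ± 2.75 in Control (SD, n = 3). Eng lost its call without Control 43 (0.43), Control 45 (0.60) or Model 57 (0.47), and its exons overlap those of Fpgs on the opposite strand. The decoy receptor Flt1 (-0.02 ± 0.24) and the guidance receptor Robo4 (0.14 ± 0.20) did not pass on this scale.

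Among the 10 junction and surface glycoproteins 2 passed as higher in Model and none as lower on the TMM scale, where 21.3% of all genes passed in each direction. Emcn, a mucin that hinders leukocyte contact, stood at 6.87, 7.67 and 8.42 CPM in QYD, 7.53, 8.87 and 7.86 CPM in Model, and 5.87, 5.86 and 5.34 CPM in Control. All injured libraries lay above Control, with a log2 fold change of 0.51 ± 0.15 in Model (edgeR adjusted p = 0.0162) that was lost without Control 45 (0.47) or Model 57 (0.44). Podxl, a sialomucin, had 0.54 ± 0.20 and an edgeR adjusted p of 0.0479, with Model 56 inside the Control range. Podxl was lost without Control 43, Control 45, Model 57, Model 59 or any QYD library (0.41 to 0.54). The junction genes Pecam1 (0.14 ± 0.20), Cdh5 (0.21 ± 0.29), Esam (0.09 ± 0.18) and Cldn5 (-0.66 ± 0.38) did not pass.

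The remaining identity genes did not pass in Model versus Control. Vwf, the clotting factor carrier stored in endothelial granules, had -0.72 ± 0.36, and without Model 57, its highest Model library, -1.25 with an edgeR adjusted p of 0.00699. Icam2, a resting adhesion molecule, had -0.05 ± 0.43, Cd34 0.26 ± 0.27 and the matrix glycoprotein Mmrn2 -0.45 ± 0.22. The transcription factors Erg and Sox18 had 0.22 ± 0.31 and -0.07 ± 0.19. Nos3, the endothelial nitric oxide synthase, had 0.53 ± 0.32, and Egfl7, a secreted protein whose gene also carries Mir126a, had 0.31 ± 0.16; exons of Nos3 overlap those of Atg9b and exons of Egfl7 those of Agpat2. Gpihbp1, which carries lipoprotein lipase to the capillary lumen, had -0.38 ± 0.22.

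**Figure D2:**
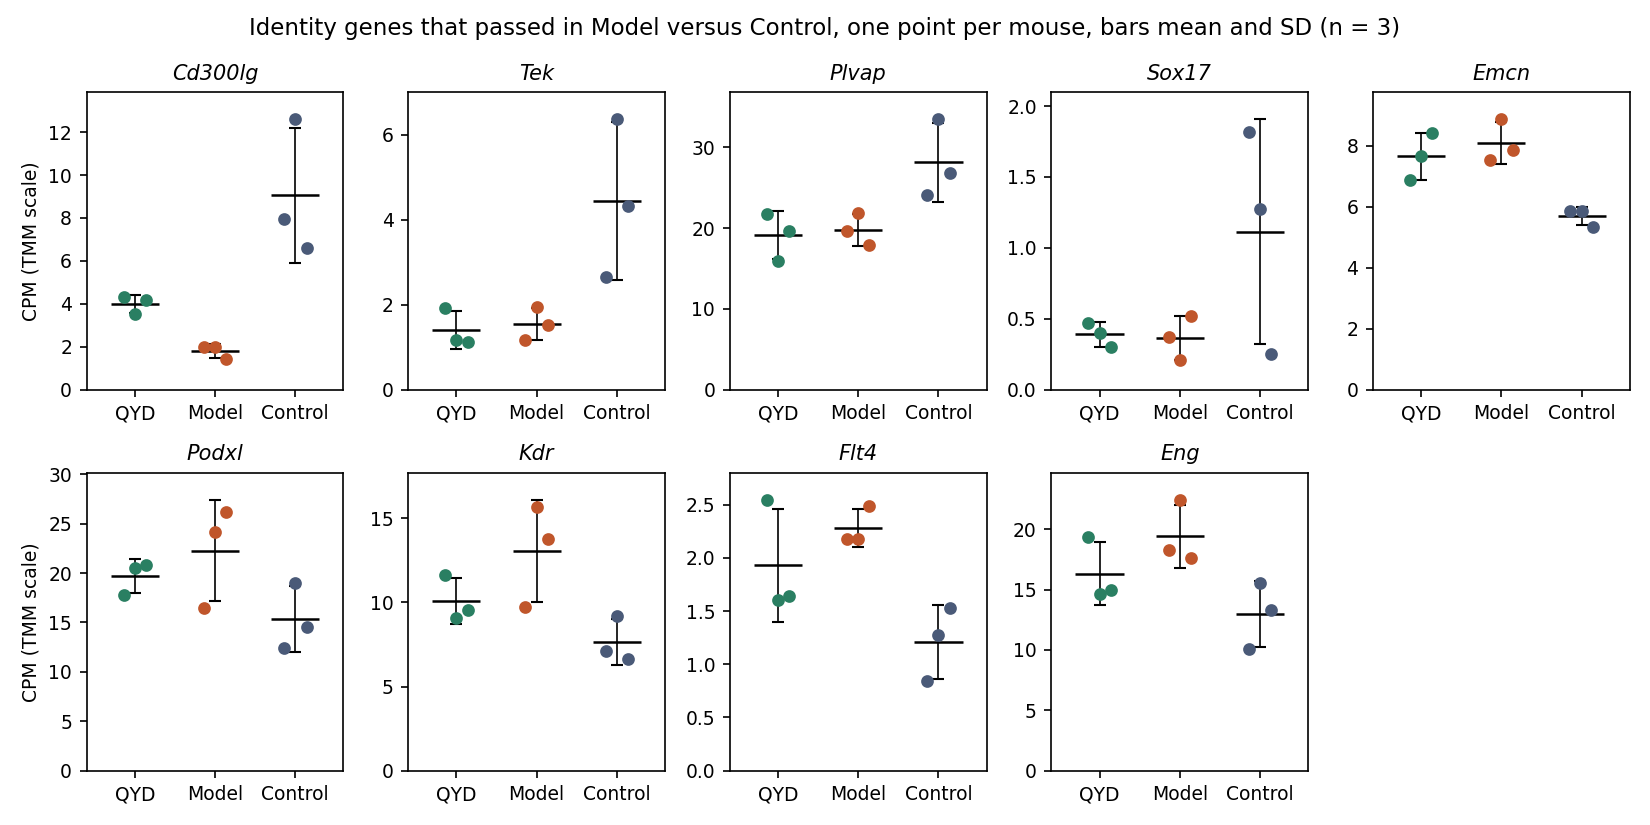
Levels of the 9 identity genes that passed in Model versus Control, in CPM on the TMM scale (y axes from 0), for QYD, Model and Control; points are single mice, lines the mean and bars the SD (n = 3). Cd300lg, Tek and Plvap lie lower in every injured library than in every Control library on this scale, while on library size Tek stood at 0.60 and Plvap at 1.65 log2 units in Model versus Control; Control 45 is low for Sox17.

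Since scaling moves these values, members were also set against each other within a library, which needs no scaling factor. Per 1000 counts of the 25 identity genes, the 7 activation genes held 247, 235 and 277 counts in QYD, 315, 267 and 228 in Model, and 61.9, 33.2 and 109 in Control. No injured library came near the highest Control library. Icam1 held 95.2, 92.8 and 94.5 counts per 1000 in QYD, 114, 93.6 and 90.1 in Model, and 16.3, 12.7 and 36.1 in Control. Tek held 9.42, 7.36 and 6.85 in QYD, 7.12, 8.88 and 8.37 in Model, and 16.3, 30.2 and 25.6 in Control. Cd300lg held 21.0, 22.1 and 25.6 in QYD, 12.2, 9.02 and 7.80 in Model, and 49.0, 59.7 and 39.1 in Control. Plvap held 106, 100 and 120 in QYD, 119, 100 and 98.5 in Model, and 148, 159 and 159 in Control. For Icam1, Tek, Cd300lg and Plvap, injured and Control libraries did not overlap in this ratio. The same held, with injured libraries higher, for Selp, Vcam1, Sele, Angpt2, Apln, Kdr, Flt4 and Eng. Tie1, Vwf and Mmrn2 lay lower in injured libraries, also without overlap. The ratio was not computed for all genes, so no share of all genes stands beside it. On the TMM scale 27.4% of all genes lay wholly above Control in Model and 24.9% wholly below. A lack of overlap is thus common and is not read as particular to these genes. Each identity gene is also part of the sum it is divided by. Such a ratio shows unequal change between genes and not which of them changed.

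**Figure D3:**
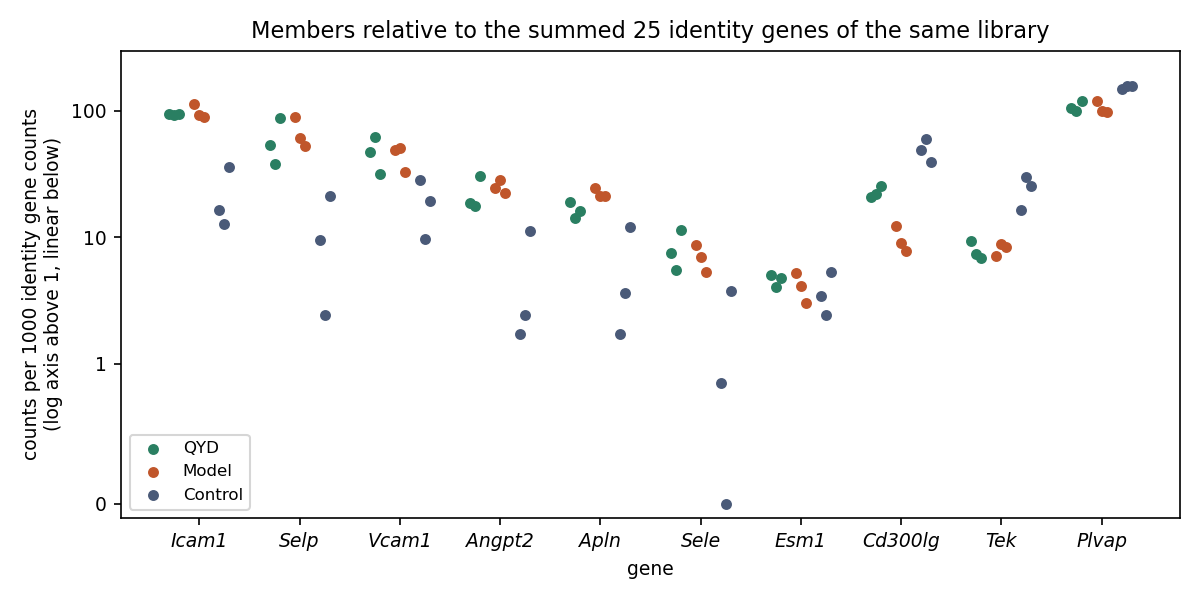
Counts of 10 members per 1000 counts of the summed 25 identity genes of the same library (y axis, logarithmic above 1 and linear below), for QYD, Model and Control mice. Icam1 lies at 90.1 or above in injured libraries and at 36.1 or below in Control, while Tek lies at 9.42 or below in injured libraries and at 16.3 or above in Control.

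Scaled to 25 other endothelial markers, an alternative chosen after seeing the data, the same 6 activation genes passed as higher in Model versus Control (median 2.40 of the 7, against 0.20 for all genes, of which 21.6% passed as higher and 12.3% as lower). Icam1 stood at 2.40 ± 0.29 and Selp at 2.87 ± 0.40 log2 units. Of the identity genes 5 passed as higher and 2 as lower, which were Cd300lg (-2.17 ± 0.28) and Tek (-1.39 ± 0.34). Plvap (-0.36 ± 0.22) and Sox17 (-1.38) did not pass on that scale.

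**Figure D4:**
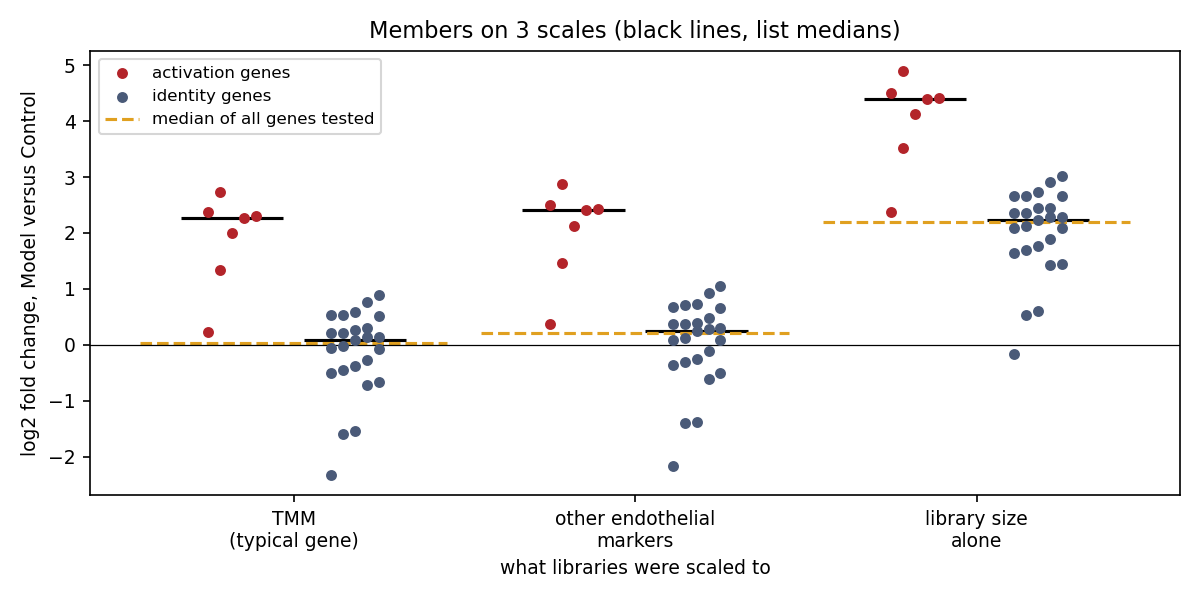
Log2 fold changes of Model over Control (y axis) for the 7 activation and 25 identity genes when libraries were scaled to the typical gene (TMM), to 25 other endothelial markers or to library size alone. Black lines are list medians and dashed lines the median of all genes tested; activation genes lie above the median of all genes on each scale, and the identity median lies near it on each scale (2.23 against 2.19 on library size).

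QYD set against Model shows what went with the decoction after the same injections. No member passed by edgeR, nor did any of the 12828 genes (0.0%), and 0.826 was the lowest adjusted p. Unadjusted, 1 of the 32 members had p under 0.05, against 750 of all genes (5.85%). DESeq2 called 0 genes as well (714 unadjusted), and limma voom 1, which was no member. The 7 activation genes had a median log2 fold change of -0.16, with 2 positive and 5 negative, and the 25 identity genes -0.15, with 6 positive and 19 negative, against 0.01 for all genes. Of all genes 6558 were positive and 6270 negative. Members followed the same libraries within groups, so their signs are not separate observations.

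The 1 member under 0.05 unadjusted was Cd300lg, whose values are given above: all 3 QYD libraries (3.52 to 4.30 CPM) lay above all 3 Model libraries (1.41 to 2.00 CPM). Among all genes 8.56% had every QYD library above every Model library, and 8.18% below. Its log2 fold change was 1.15 ± 0.24, with an edgeR adjusted p of 0.826, so the difference did not pass over all genes. Over the other settings it ran from 0.66 to 1.23, with 0.105 as the lowest adjusted p from any tool. Gpihbp1, the other capillary gene with a positive value, averaged 5.40 ± 0.905 in QYD, against 4.03 ± 0.768 CPM in Model (SD, n = 3), and its log2 fold change was 0.42 ± 0.20. Adipocyte markers, among them Fabp4 and Cd36, which capillaries can also express, had a summed level of 122, 103 and 94.8 CPM in QYD, against 68.7, 95.8 and 53.1 in Model, and QYD 68 lay just below Model 57. None of the 8 adipocyte markers passed in QYD versus Model, and their part in Cd300lg was not tested.

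The adhesion genes of QYD and Model overlapped. Icam1 had -0.16 ± 0.21, Vcam1 -0.01 ± 0.29, Sele 0.12 ± 0.42 and Selp -0.27 ± 0.34 on the log2 scale. Apln had -0.51 ± 0.32 and Angpt2 -0.30 ± 0.33. The SE of 0.21 to 0.42 for the adhesion genes sets what could be seen with 3 mice a group, and a p that misses the threshold does not show that the groups were alike. Among receptors all 7 had a negative value, from -0.38 (Flt1) to -0.04 (Tie1), with Kdr at -0.37 ± 0.18 and Flt1 at -0.38 ± 0.22. QYD 65 was the highest QYD library in 23 of 25 identity genes, and Model 57 the highest Model library in 17 of 25.

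QYD set against Control shows how treated injured mice differed from saline mice. It shares the QYD and Control libraries with the comparisons above. Of the 32 members 7 passed as higher and 4 as lower, where 40.7% of all genes passed, 20.5% as higher and 20.3% as lower. Every QYD library lay above every Control library in 27.8% of all genes and below in 24.7%. The same 6 activation genes were higher: Icam1 by 2.11 ± 0.27, Selp by 2.47 ± 0.48, Sele by 2.42 ± 0.68, Angpt2 by 2.07 ± 0.48, Apln by 1.49 ± 0.45 and Vcam1 by 1.34 ± 0.36 log2 units. The side by side values of Model versus Control were 2.27, 2.74, 2.30, 2.38, 1.99 and 1.35. Without Control 45 Sele stood at 4.32, Angpt2 at 3.26 and Apln at 2.46. Sele lost its call without Control 43 (2.15), Apln without Control 43 (1.07), Control 44 (1.30) or QYD 65 (1.21), and Vcam1 without Control 44 (1.08).

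Of the identity genes 1 was higher in QYD than in Control and 4 were lower on the TMM scale, and on library size 23 were higher and none lower, with medians of -0.05 and 1.98 (93.8% of all genes were higher and 0.99% lower on library size). Scaled to other endothelial markers, 1 was higher and 2 were lower, Cd300lg and Tek, against 22.9% and 10.4% of all genes. Emcn was higher by 0.43 ± 0.15 (edgeR adjusted p = 0.0374). Cd300lg was at -1.18 ± 0.24 (edgeR adjusted p = 0.00271; 0.85 on library size), beside -2.33 in Model versus Control. Tek was at -1.65 ± 0.35 (edgeR adjusted p = 0.00349; 0.39 on library size), and Plvap at -0.56 ± 0.16 (1.48 on library size). Mmrn2 was at -0.66 ± 0.22 (1.38 on library size), beside -0.45 ± 0.22 in Model versus Control, which did not pass. Emcn was lost without any 1 Control library, Model 59, QYD 66 or QYD 68 (0.36 to 0.45), and Mmrn2 without any 1 Control library, QYD 66 or QYD 68 (-0.69 to -0.57). Plvap was lost without Control 44 (-0.41) or QYD 66 (-0.44). Genes that did not pass with all libraries on the TMM scale and did with 1 left out were Flt1 (-0.68 without QYD 65), Sox17 (-1.96 without Control 45) and Vwf (-0.87 without Model 57). Vwf also passed with the compared groups fitted alone (-0.88, edgeR adjusted p = 0.0247) and Cldn5 by voom (-1.09, adjusted p = 0.043), while on library size Vwf and Flt1 passed as higher (1.17 and 1.65).

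**Figure D5:**
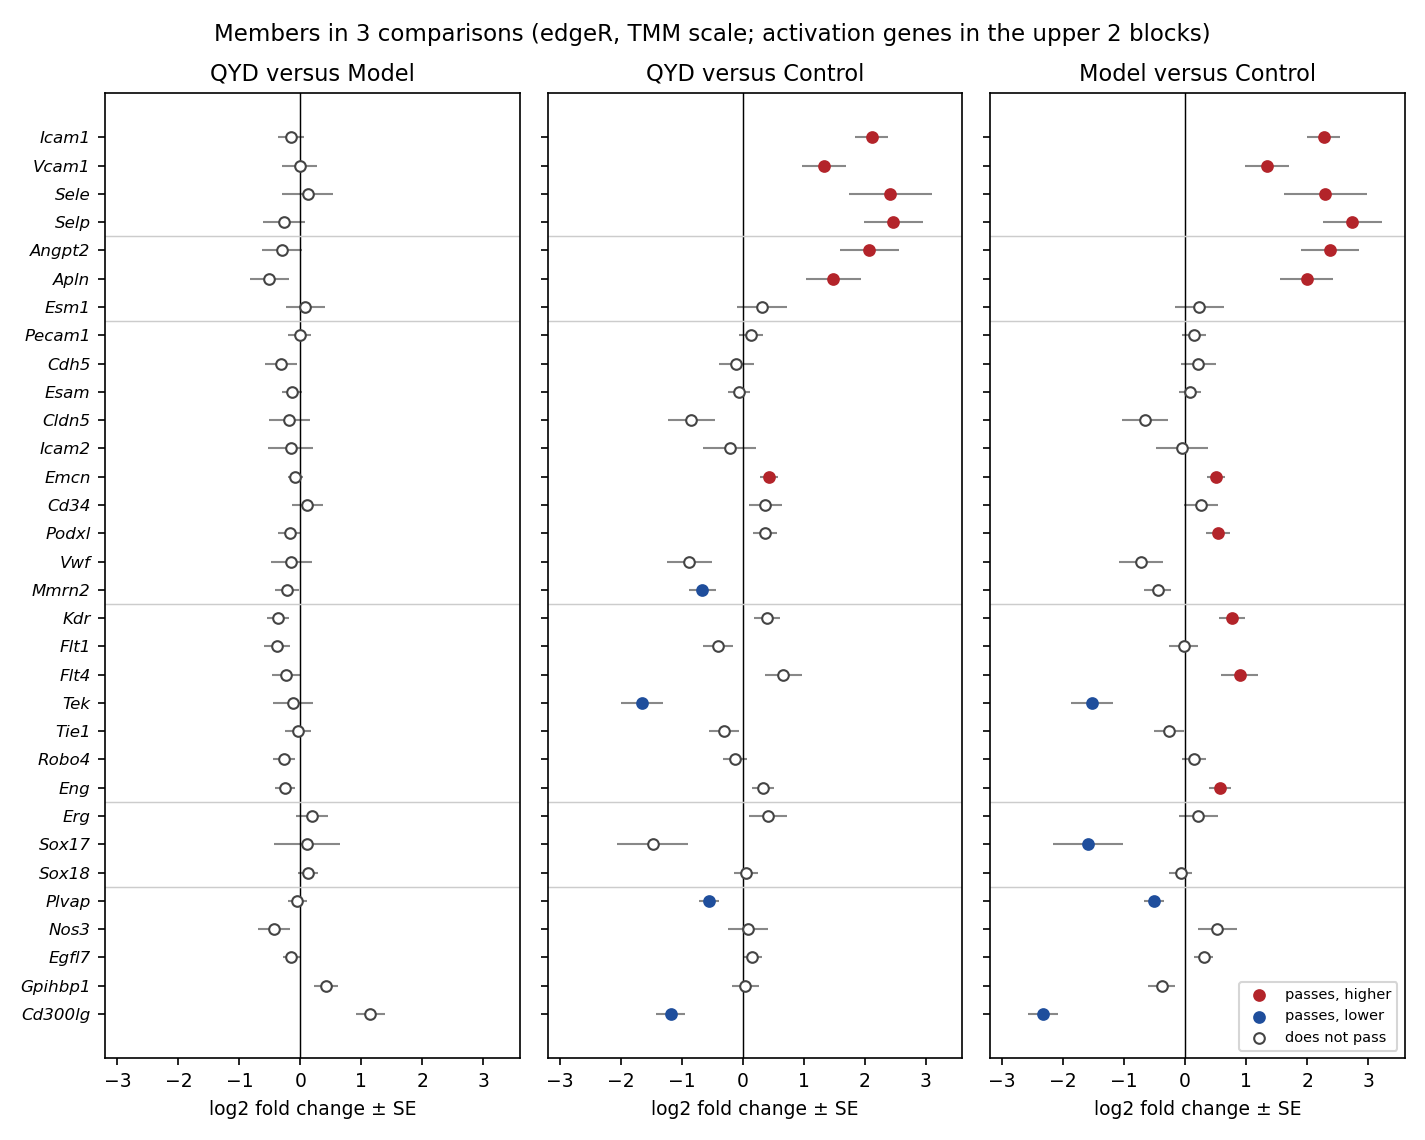
Log2 fold change with its SE (x axis, TMM scale) of each member (y axis) in QYD versus Model, QYD versus Control and Model versus Control; red and blue points passed as higher and lower, open points did not pass. The 6 activation genes at the top pass in both comparisons with Control and none in QYD versus Model; on library size the blue points of Tek, Sox17 and Plvap have positive values, as do those of Cd300lg (0.85) and Mmrn2 (1.38) in QYD versus Control.

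Genes around the members were described by lists of the same pathways, here for Model versus Control. Leukocyte partners of the adhesion molecules had 8 of 14 tested genes higher and 1 lower, where 21.3% of all genes passed in each direction. The integrin subunit Itgal, a partner of Icam1, stood at 8.69 ± 1.28 CPM in QYD, 7.93 ± 1.11 in Model and 2.63 ± 0.29 in Control (SD, n = 3), a log2 fold change of 1.59 ± 0.20 in Model. Itgam, the other partner, rose by 2.30 ± 0.49, and by 3.48 without Control 45. Fut4, which helps to build selectin ligands, rose by 1.93 ± 0.39, while Gcnt1, an enzyme of the same glycans, fell by 2.84 on the log2 scale (-0.67 on library size).

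Transmigration junction genes had 8 of 13 higher and 1 lower, against 21.3% of all genes in each direction. F11r (1.52 ± 0.23), a junctional adhesion molecule, the scaffold Tjp1 (1.27 ± 0.20), Mcam (1.78 ± 0.36) and the catenin Ctnnd1 (0.46 ± 0.12) rose. Epithelium expresses F11r, Tjp1 and Ctnnd1 as well, and 7 of 9 duct and injured epithelium markers were higher and 1 lower, with a summed level of 1369 to 2542 CPM in QYD, against 1626 to 2796 in Model and 579 to 763 in Control. The part of epithelium in these genes was not tested.

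Of 20 genes of the VEGF, angiopoietin, apelin and Notch pathways 5 were higher and 6 lower, which is near the 21.3% of all genes in each direction. Angpt1, the activating ligand of Tek, stood at 1.88 ± 0.43 CPM in QYD, 1.40 ± 0.59 in Model and 4.25 ± 1.00 in Control (SD, n = 3), a log2 fold change of -1.62 ± 0.35 in Model, against 0.50 on library size. Angpt1 and Tek thus had negative values on the TMM scale, where Angpt2 had a positive one, and on library size all 3 were positive with Angpt2 at 4.51. Vegfb fell by 1.60 on the log2 scale (0.55 on library size), and Hif1a (1.12 ± 0.22) and Angptl4 (0.83 ± 0.16) rose.

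Haemostasis and tone genes had 8 of 16 higher and 2 lower, against 21.3% of all genes in each direction. Ace (2.93 ± 0.56), the protein C receptor Procr (2.48 ± 0.46) and the protease Adamts1 (1.31 ± 0.23) rose. Regulators of adhesion gene transcription had 13 of 18 higher and 1 lower, against the same share of all genes. The feedback inhibitors Tnfaip3 (2.40 ± 0.36) and Nfkbia (0.99 ± 0.15), the coregulator Bcl3 (2.53 ± 0.33) and the TNF receptor Tnfrsf1a (1.06 ± 0.11) rose.

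Other endothelial markers had 5 of 25 higher and 5 lower, with a median of -0.24, and lymphatic markers 1 of 6 higher and 1 lower, both near the 21.3% of all genes in each direction. Ackr1, a chemokine receptor of venules, stood at 2.17 ± 0.43 CPM in QYD, 2.67 ± 0.51 in Model and 0.43 ± 0.40 in Control (SD, n = 3), a log2 fold change of 2.60 ± 0.45 in Model. Rasip1, which shapes vessel lumens, rose by 1.40 ± 0.20. The water channel Aqp1 fell by 2.55 and the phosphatase Ptprb, which acts on Tek, by 1.37 on the log2 scale, against -0.41 and 0.78 on library size. Of the 6 lymphatic markers 1 had a positive value on the TMM scale, Pdpn (1.97 ± 0.27), and 5 were negative, with a median of -0.67. The part of other cells in Pdpn was not tested. Prox1, which fell by 0.96, lost its call without any 1 Control library, Model 56, Model 57, QYD 65 or QYD 66 (-1.10 to -0.72) and stood at 1.17 on library size. Lyve1 (-1.01 ± 0.49) and Ccl21a (-1.08 ± 0.42) did not pass, although Lyve1 passed without Control 45 (-1.45) and Ccl21a without Control 45 (-1.33), QYD 66 or QYD 68, by DESeq2 (-1.08) and with the compared groups fitted alone (-1.09).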

How the data were processed

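Messenger RNA of pancreas from 9 mice was sequenced, and the deposited table gives 17132 genes. Read counts per library, named so per the file headers, are estimated counts that the authors deposited, 93.5% of them whole within 0.001. FPKM values, per gene length and library total, and TPM values were deposited by the authors too; TPM was not tested. RSEM 1.2.12, Bowtie2 2.2.5, HISAT2 2.0.4 and GRCm38.p6 appear in the submitters' processing notes, without roles; no source used here states strandedness. Columns of group means were not used.

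Rounded counts entered edgeR 4.0.16 (R 4.3.3). The default filter left 12828 genes. Libraries were scaled by TMM and 1 quasi-likelihood model was fitted to all 9, with group as the only term, 6 residual degrees of freedom, a common coefficient of variation of 0.175 and Benjamini-Hochberg adjustment at 0.05. The SE is the log2 fold change divided by the square root of F. Nothing but the labels' separate titles says that libraries are separate mice, and p-values measure the spread between them. Alternatives were library size alone, RLE factors, TMM factors leaving out the 50 most abundant genes, no filter, at least 5 CPM in 3 libraries, DESeq2 1.42.0, limma 3.58.1 (voom with weights, and log2 of FPKM plus 1 or 0.1, with FPKM of at least 1 in 3 libraries or unfiltered), only the compared groups, an adjusted p of 0.1, each library left out, and scaling to 25 other endothelial markers. The tests were checked on simulated data. All 32 members were named, and of each pathway list up to 4 genes with the smallest p in Model versus Control and a mean of at least 1 CPM. A gene that this rule names is not reported here. The members and lists were chosen with earlier results of these data known. Gene coordinates are those of RefSeq on GRCm38.p6, matched by gene identifier (17031 of 17132).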

Additional observations from a re-analysis of the deposited data

How the results depend on the processing

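The counts and directions depended most on scaling. On library size alone, and with limma on log2(FPKM + 1), log2(FPKM + 0.1) and unfiltered log2(FPKM + 1), in that order, 12185, 10083, 10086 and 12665 genes passed in Model versus Control, and 12155, 10077, 10071 and 12541 in QYD versus Control. The genes tested were 12828, 10382, 10382 and 17115 in both comparisons, so most of all genes passed. Identity genes passing as higher were then 22, 17, 17 and 22 in Model versus Control and 23, 18, 18 and 22 in QYD versus Control, with 0 lower in each. The filter on FPKM left Flt4, Tek, Vwf, Cldn5, Erg, Sox17 and Nos3 untested, and Sele and Esm1 among activation genes. The middle counts thus rest on fewer identity genes. The identity median was 2.23, 1.53, 2.08 and 1.18 in Model versus Control and 1.98, 1.35, 1.93 and 0.96 in QYD versus Control. The activation median was 4.40, 3.67 and 1.59 in Model versus Control and 4.07, 3.27 and 1.31 in QYD versus Control on library size, log2(FPKM + 0.1) and unfiltered log2(FPKM + 1). In QYD versus Model 1 gene passed by voom, 1, 1 and 2 by the FPKM fits.

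Values that turned positive on library size and the same FPKM fits were, in Model versus Control, Plvap (1.65, 1.49, 1.63 and 1.49) and Vegfb (0.55, 0.46, 0.54 and 0.46), and in QYD versus Control Plvap (1.48, 1.33, 1.46 and 1.33), Mmrn2 (1.38, 0.56, 1.16 and 0.56) and Cd300lg (0.85, 0.58, 0.85 and 0.58). On library size and the unfiltered FPKM fit, the others were Tek (0.60 and 0.15), Sox17 (0.54 and 0.072), Ptprb (0.78 and 0.30), Prox1 (1.17 and 0.18) and Angpt1 (0.50 and 0.13) in Model versus Control, and Tek (0.39 and 0.075) in QYD versus Control. These scales divide by library totals that acinar transcripts dominate in Control. Of 124 gene results, 2245 of 2507 values under the alternatives kept their direction and their side of the threshold, 86 lost their call, 144 gained one and 32 turned; a direction was counted only for genes passing in the reported fit, and 62 of the 144 had the opposite sign (0.31 to 2.12).

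With at least 5 CPM in 3 libraries, 2 identity genes passed as lower in Model versus Control, Cd300lg and Plvap, where 4456 of 8984 genes passed in either direction. Tek and Sox17 were not tested in that fit, since neither reached 5 CPM on library size in any library. Scaled to other endothelial markers, 2 were lower in Model versus Control and 2 in QYD versus Control, where the identity median was 0.14. In QYD versus Control 0 identity genes were higher by DESeq2, by voom and with only the compared groups fitted, and 3 activation genes by voom, which ended the calls of Sele (1.94), Angpt2 (1.79) and Apln (1.29). In Model versus Control voom ended those of Sele, Vcam1, Flt4, Sox17 (-0.96) and Prox1 (-0.88). The cause was not tested. Leaving out 1 library gave 4583 to 5307 genes in Model versus Control, 4237 to 5139 in QYD versus Control and 0 in QYD versus Model. These are calls in either direction, of 12991 to 13082 genes tested. Identity genes were then higher in 1 to 4 cases and lower in 2 to 4 in Model versus Control, and 0 to 1 and 2 to 5 in QYD versus Control. Activation genes were higher in 4 to 6 cases in both. Identity medians ran from -0.06 to 0.17, -0.16 to 0.08 and -0.26 to -0.04 in Model versus Control, QYD versus Control and QYD versus Model, and activation medians from 1.81 to 2.96, 1.68 to 2.64 and -0.29 to -0.07.

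No paired analysis was possible because the groups share no replicate numbers. Depth limited Sele, Esm1, Cldn5, Flt4, Icam2, Erg and Sox17, which had 13 counts or fewer in every Control library. It also limited Angpt2 (2, 4 and 15 counts in Control), Apln (2, 6 and 16), Selp (11, 4 and 28) and Nos3 (8, 14 and 8). With 3 mice a group no sample was screened as an outlier.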
